A study of Mus musculus with 4 samples.

Results

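The alternate isoforms of the clustered protocadherins were taken as every protein-coding gene whose GENCODE vM21 symbol was Pcdha, Pcdhb, Pcdhga or Pcdhgb followed by a number, and were ordered by gene start within each array. The rule found 52 members among the 37437 genes of the files. Of these, 12 lay in the Pcdha array, 22 in the Pcdhb array and 18 in the Pcdhg array, where 12 were Pcdhga and 6 were Pcdhgb. The C-type isoforms were not members, and Pcdhgb8 was left out because the annotation types it as a polymorphic pseudogene. The RNA came from primary cultures of mouse cortex in which adeno-associated virus delivered a knockdown of Ctcf (shCTCF, 2 libraries) or of lacZ (shLAC, 2 libraries), a bacterial gene used as the control target. All 4 libraries therefore carried virus and a knockdown construct, and they differed in its target. The sources used here do not give mouse strain, age of the culture, hairpin sequence or the promoter that drives it. The labels do not say whether the replicates were separate cultures, so p-values rest on a spread that may be technical.

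Clustered protocadherins are cell-surface proteins of the cadherin superfamily that bind their own kind on other cells. Each neuron transcribes a small set of alternate isoforms, and the resulting surface code lets its branches recognise and avoid each other. In the Pcdha and Pcdhg arrays every alternate isoform has its own promoter and its own large first exon, which is spliced to constant exons shared by the array, whereas each Pcdhb gene codes for its protein in 1 exon and has no constant exons. CTCF, a zinc finger protein, binds at most alternate promoters and at distant enhancers, and cohesin-dependent looping between them is known to favour transcription of the chosen promoter. The comparison asked how the level of each alternate isoform differed when CTCF was reduced, and whether the difference followed the isoform's place in its array.

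Every member lies on the + strand of chromosome 18 (GRCm38). The Pcdha members run from 36930184 to 37187661, with 90.0 kb between the first and the last gene start. The Pcdhb genes follow from 37264938 to 37524479, with starts spread over 252.9 kb. The Pcdhg members run from 37661793 to 37841873, with starts spread over 103.8 kb. Pcdha and Pcdhg genes end together at the constant exons, so their gene bodies are nested, while Pcdhb genes lie one after another, with a small overlap at the last pair. In vM21 the symbol Pcdha11 belongs to 2 genes, ENSMUSG00000007440 and ENSMUSG00000102206. They are told apart below as the upstream and the downstream Pcdha11.

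The values were TPM, a share of transcripts corrected for length, so levels can be compared between genes, but sequencing depth is unknown and no counting interval can be given. In shLAC replicate 2, 13 satellite-like predicted genes held 20.2% of all TPM, against 0.405% to 1.86% in the other 3 libraries. The median log2 fold change of 11132 tested coding genes was 0.17 in the values as deposited. Levels called scaled were therefore divided by a median-ratio size factor per library (0.832 to 1.10), after which that median was 0.00. Fold changes are log2(scaled TPM + 1), shCTCF over shLAC, which understates the change of genes as low as these, and the percentages of the control level are ratios of scaled means without the added 1. Tests used limma over the 11132 genes with Benjamini-Hochberg adjustment, and a member is said to have fallen or risen at an adjusted p below 0.05. Ctcf, the target, was at 8.49 and 7.32 TPM in shLAC and at 3.56 TPM in each shCTCF library. Its scaled level in shCTCF was 39.3% of control (log2 fold change -1.13 with SE 0.0669 and limma adjusted p = 0.00206, n = 2 per group).

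All 52 members were detected in all 4 libraries, at low levels. Mean TPM over the libraries ran from 0.573 for Pcdha8 to 5.56 for Pcdhga3, with a median of 1.88. The test covered 48 members that reached 1 TPM in at least 2 libraries. Pcdha1, Pcdha8, the downstream Pcdha11 and Pcdhb1 did not. Another 6 members, Pcdhb2, Pcdhb3, Pcdhb4, Pcdhb12, Pcdhb13 and Pcdhb21, reached 1 TPM in the shLAC libraries only, so counts over tested members lean towards lower levels in shCTCF.

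Of the 48 tested members, 26 fell in CTCF knockdown, 0 rose and 22 were not called by limma. Over all coding genes tested, 3.69% were called lower and 2.84% higher. At an unadjusted p below 0.05, limma gave 38 members lower and 1 higher, against 12.1% and 11.8% of all genes tested. Over the 48 members the median log2 fold change was -0.35, and 44 of the 48 values were negative, against 50.1% of all genes tested. Among the 4712 tested genes whose mean scaled level lay in the members' own range, 0.837 to 5.59, 3.74% were called lower and the median log2 fold change was 0.00. In scaled TPM, both shCTCF libraries lay below both shLAC libraries for 47 of the 52 members, a pattern that 27.2% of all genes tested showed. Both lay above both shLAC libraries for 3 members, Pcdhb1, Pcdhgb4 and Pcdhgb7, against 27.6% of all genes tested. As deposited, where shLAC replicate 2 is lowered by its satellite-like RNA, the lower pattern held for 36 members and 3.36% of all genes tested, and the higher pattern for 3 members and 44.9% of all genes tested. With 2 libraries per group the smallest 2-sided p of an exact permutation test is 0.333, so single values cannot pass such a test.

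The count depended on libraries and on the scale. Fewer members were called without either shCTCF library, and fewer of all genes tested were called as well. Each such fit leaves 1 library in a group, so its effect size is given. Without shCTCF replicate 2 the median log2 fold change of the 48 members was -0.34. Without shLAC replicate 2, the satellite-rich library, that median was -0.36. On the deposited scale without size factors 7 were called lower, and no member was called higher by limma under any setting run. These are RNA levels averaged over a mixed culture in which each neuron uses few isoforms. Fewer cells that use an isoform and less RNA per cell cannot be told apart.

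**Figure D1:**
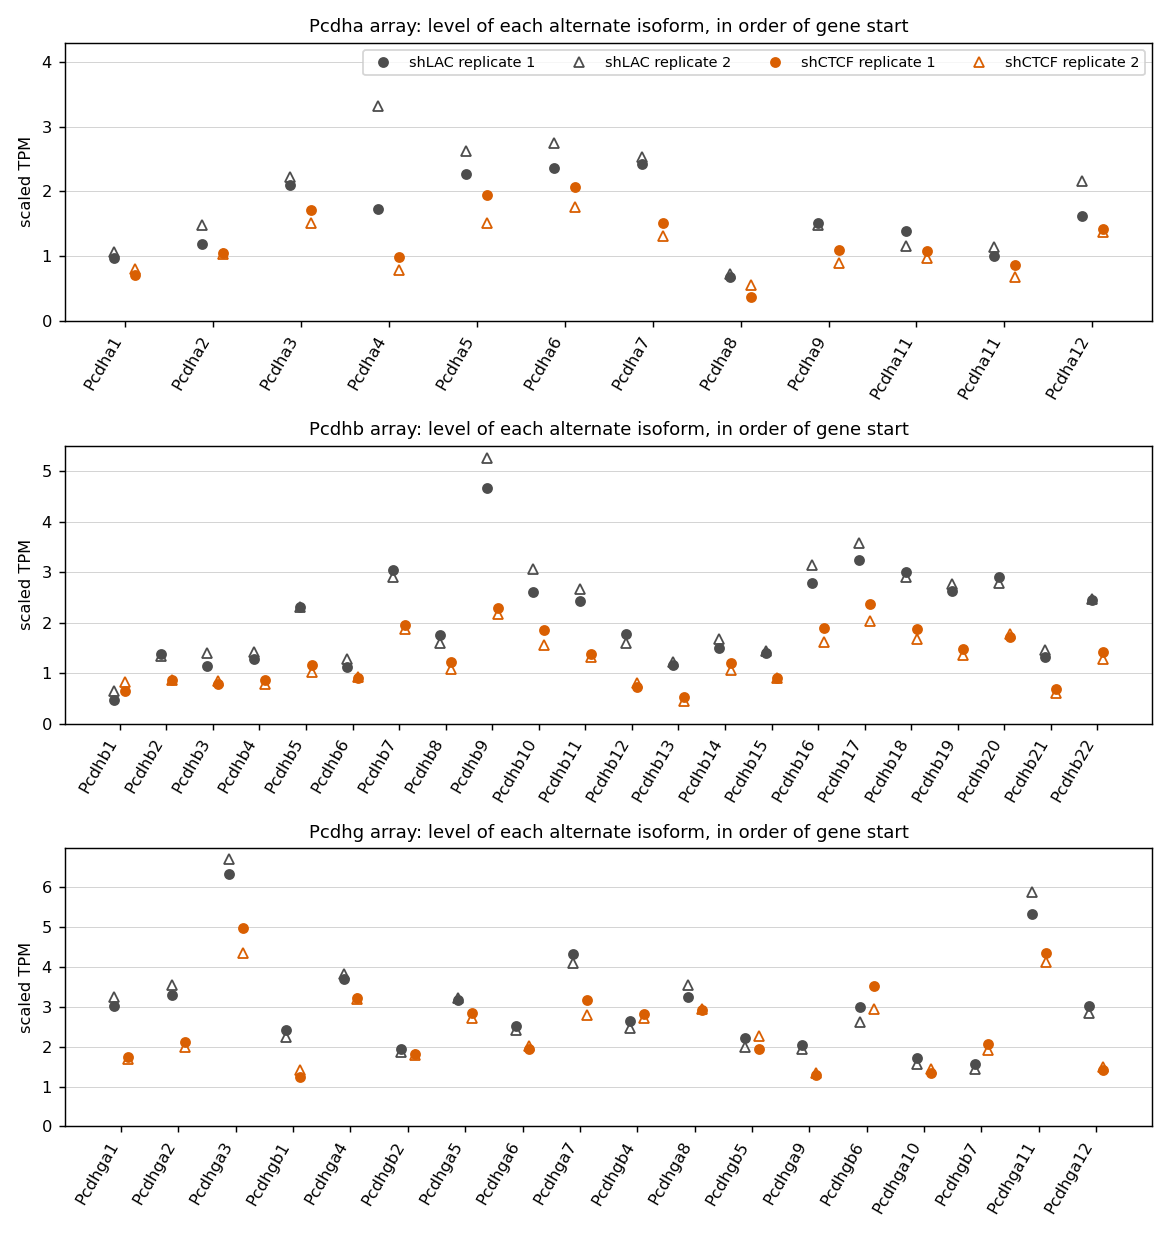
Scaled TPM (y axis) of each of the 52 alternate isoforms in each library, in the order of gene start along the Pcdha, Pcdhb and Pcdhg arrays (x axis); each point is 1 library, grey for shLAC and orange for shCTCF, and the first Pcdha11 is ENSMUSG00000007440. The shCTCF points lie below both shLAC points for 47 members, and Pcdhb1, Pcdhgb4 and Pcdhgb7 have both shCTCF points above.

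The Pcdhb genes, which share no constant exons, were lower along nearly the whole array. Of 21 tested members 17 fell and none rose by limma, with a median log2 fold change of -0.50. Their values ranged from -0.88 at Pcdhb9 to -0.20 at Pcdhb6. The genes that fell were Pcdhb2, Pcdhb4, Pcdhb5, Pcdhb7, Pcdhb9 to Pcdhb13 and Pcdhb15 to Pcdhb22. Of these, Pcdhb2, Pcdhb4, Pcdhb12, Pcdhb13 and Pcdhb21 passed the filter through the shLAC libraries only, while Pcdhb1, with a higher mean in knockdown, was left out. The count of 17 therefore leans towards lower levels. Without the expression filter 8 of 22 were called lower by limma, against 0.842% of all genes tested in that fit. Summed over the 22 genes, the scaled level was 46.4 and 48.9 in shLAC and 28.7 and 26.9 in shCTCF, so that the shCTCF mean was 58.4% of control.

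Pcdhb9 (ENSMUSG00000051242, chromosome 18, 37400855 to 37403909) was the most abundant Pcdhb gene in the control libraries and had the lowest fold change of all tested members. It was at 4.88 and 4.38 TPM in shLAC and at 2.52 and 2.28 TPM in shCTCF. Both knockdown values were well under both control values, at 45.1% of control after scaling (log2 fold change -0.88, SE 0.0764, limma adjusted p = 0.00361). Its neighbour upstream, Pcdhb8, was at 1.83 and 1.33 TPM against 1.33 and 1.13 TPM and was not called (limma adjusted p = 0.0629). As deposited, the groups touch for Pcdhb8, since shLAC replicate 2 and shCTCF replicate 1 have the same value.

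Pcdhb13 had the lowest share of control in its array. It was at 1.21 and 1.02 TPM in shLAC and at 0.58 and 0.46 TPM in shCTCF, which is 40.6% of control (log2 fold change -0.56, SE 0.0795, limma adjusted p = 0.0129). The groups did not overlap, and the small fold change beside the low share of control shows how much the added 1 compresses genes at this level. Pcdhb12, next to it, was at 1.85 and 1.33 TPM in shLAC and at 0.79 and 0.85 TPM in shCTCF, or 45.5% of control (limma adjusted p = 0.00940). An annotated antisense gene, Gm37446, covers 63.5% of the exonic bases of Pcdhb12 and was itself at 1.30 and 1.26 TPM in shLAC and at 0.64 and 0.55 TPM in shCTCF. The sources used here do not say whether counting used strand, so reads of this pair may not be separated.

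Further along, Pcdhb21 stood at 1.39 and 1.22 TPM in shLAC and at 0.76 and 0.63 TPM in shCTCF, 46.3% of control (limma adjusted p = 0.0145). In the upstream part of the array, Pcdhb5 went from 2.42 and 1.92 TPM to 1.28 and 1.08 TPM, 47.6% of control (log2 fold change -0.66, SE 0.0744, limma adjusted p = 0.00618). These genes lie 55.4 and 249 kb from the first start of the array. Between them, Pcdhb11 and Pcdhb19 fell to 52.9% and 52.4% of control (limma adjusted p = 0.00815 and 0.00691). Pcdhb22, the last gene of the array, was at 2.56 and 2.05 TPM against 1.56 and 1.34 TPM, or 55.0% of control (limma adjusted p = 0.00940). Its annotated exon overlaps that of Pcdhb21, over 6.88% of its own bases and 9.67% of those of Pcdhb21, so some reads of the pair may be shared. The 2 libraries of each group lay close together and the groups did not overlap.

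The other Pcdhb genes that fell kept a larger part of their control level, from 59.2% at Pcdhb16 to 64.5% at Pcdhb17. Pcdhb17, which led the array in shCTCF replicate 1, went from 3.39 and 2.98 TPM to 2.60 and 2.13 TPM (limma adjusted p = 0.0264). Pcdhb2, Pcdhb4 and Pcdhb15 were called close to the threshold, with limma adjusted p of 0.0440, 0.0438 and 0.0445. All 3 calls were lost when either shCTCF library was left out, and that of Pcdhb4 also without shLAC replicate 2. Without shCTCF replicate 2 the calls of Pcdhb7, Pcdhb10, Pcdhb13, Pcdhb16, Pcdhb17, Pcdhb18, Pcdhb20 and Pcdhb21 were lost as well. That fit leaves 1 shCTCF library. In it the log2 fold changes of the genes that lost their call stayed negative, from -0.52 at Pcdhb13 to -0.34 at Pcdhb15.

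The uncalled Pcdhb genes were Pcdhb1, Pcdhb3, Pcdhb6, Pcdhb8 and Pcdhb14. Pcdhb6 was at 1.18 and 1.06 TPM in shLAC and at 1.0 and 0.97 TPM in shCTCF, 76.5% of control (limma adjusted p = 0.185). Pcdhb3 and Pcdhb14 were at 64.3% and 71.1% of control (limma adjusted p = 0.0813 and 0.0913). All 4 tested genes of this set still had both shCTCF values below both shLAC values after scaling. Pcdhb1, the first gene of the array and below the expression filter, was at 0.49 and 0.53 TPM in shLAC and at 0.71 and 0.87 TPM in shCTCF. It was the only Pcdhb gene with a higher mean in knockdown, at 134% of control, and it was not tested. Pcdhb1 lies 29.9 kb upstream of Pcdhb2.

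The Pcdhg array, whose a-type and b-type first exons alternate along the chromosome, was mixed. Of 18 tested members 8 fell, none rose by limma and 10 were not called, with a median log2 fold change of -0.20. The genes that fell were Pcdhga1, Pcdhga2, Pcdhga3, Pcdhga7, Pcdhga9, Pcdhga11, Pcdhga12 and Pcdhgb1. All 12 Pcdhga members had both shCTCF values below both shLAC values after scaling, and their median log2 fold change was -0.35. As deposited this held for 6 of the 12. Of the 6 Pcdhgb members, Pcdhgb1 and Pcdhgb2 had both shCTCF values below, Pcdhgb4 and Pcdhgb7 had both above, and Pcdhgb5 and Pcdhgb6 overlapped.

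Pcdhga3 (ENSMUSG00000104346, gene start 37674307) was the most abundant alternate isoform of all 3 arrays. It was at 6.63 and 5.57 TPM in shLAC and at 5.46 and 4.56 TPM in shCTCF. As deposited the lower shLAC value was above both shCTCF values by a small margin. After scaling the shCTCF mean was 71.6% of control (log2 fold change -0.41, SE 0.0753, limma adjusted p = 0.0282), a call lost without shCTCF replicate 2. Pcdhga11, the next most abundant, went from 5.57 and 4.89 TPM to 4.77 and 4.32 TPM, 75.6% of control (limma adjusted p = 0.0427), a call lost without shLAC replicate 2 and without either shCTCF library. Both stayed the leading pair of the array in every library.

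The lowest fold changes of the Pcdhg array were at its outermost members. Pcdhga1, the first gene, was at 3.17 and 2.69 TPM in shLAC and at 1.92 and 1.78 TPM in shCTCF, 55.1% of control (log2 fold change -0.60, SE 0.0701, limma adjusted p = 0.00691). Pcdhga12, the last alternate isoform before the C-type exons, was at 3.17 and 2.37 TPM in shLAC and at 1.54 and 1.57 TPM in shCTCF. This was 49.4% of control (log2 fold change -0.68, SE 0.0717, limma adjusted p = 0.00516). The groups were far apart for both genes. Pcdhga2 fell to 60.3% of control (limma adjusted p = 0.0105). Pcdhga7 and Pcdhga9, in the middle of the array, fell to 70.6% and 66.3% (limma adjusted p = 0.0327 and 0.0343). Both calls were lost without shCTCF replicate 2, and that of Pcdhga9 also without shCTCF replicate 1.

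The other 5 Pcdhga members were at 80.3% (Pcdhga6) to 87.0% (Pcdhga5) of control and were not called. Pcdhga4, the most abundant of them, was at 3.88 and 3.17 TPM in shLAC and at 3.54 and 3.35 TPM in shCTCF (log2 fold change -0.18, limma adjusted p = 0.157). Its deposited values overlapped between groups, and its scaled values did not. Pcdhga10 had the highest fold change of the Pcdhga members, -0.15 (limma adjusted p = 0.297), with 1.80 and 1.30 TPM against 1.46 and 1.51 TPM.

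Pcdhgb1 was the one b-type isoform that fell. It went from 2.54 and 1.87 TPM to 1.37 and 1.47 TPM, 56.7% of control (log2 fold change -0.52, SE 0.0767, limma adjusted p = 0.0143). Leaving out shCTCF replicate 1 ended this call (limma adjusted p = 0.0526). Pcdhgb2, the next b-type gene, was at 2.02 and 1.56 TPM against 1.99 and 1.88 TPM, 94.8% of control (limma adjusted p = 0.706).

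The remaining b-type members were level with control or above it. Pcdhgb4 was at 2.77 and 2.06 TPM in shLAC and at 3.10 and 2.85 TPM in shCTCF, 108% of control (limma adjusted p = 0.505). Pcdhgb6, the most abundant of the b-type isoforms, was at 3.14 and 2.17 TPM in shLAC and at 3.87 and 3.09 TPM in shCTCF, 115% of control, with overlapping groups (limma adjusted p = 0.36). Pcdhgb5 was at 100.3% of control. Pcdhgb7, the last b-type member, was at 1.64 and 1.2 TPM in shLAC and at 2.26 and 2.02 TPM in shCTCF. It was at 133% of control, the highest of all tested members, without passing the test (log2 fold change 0.26, SE 0.0741, limma adjusted p = 0.0940). Both shCTCF values were above both shLAC values in deposited and scaled TPM.

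**Figure D2:**
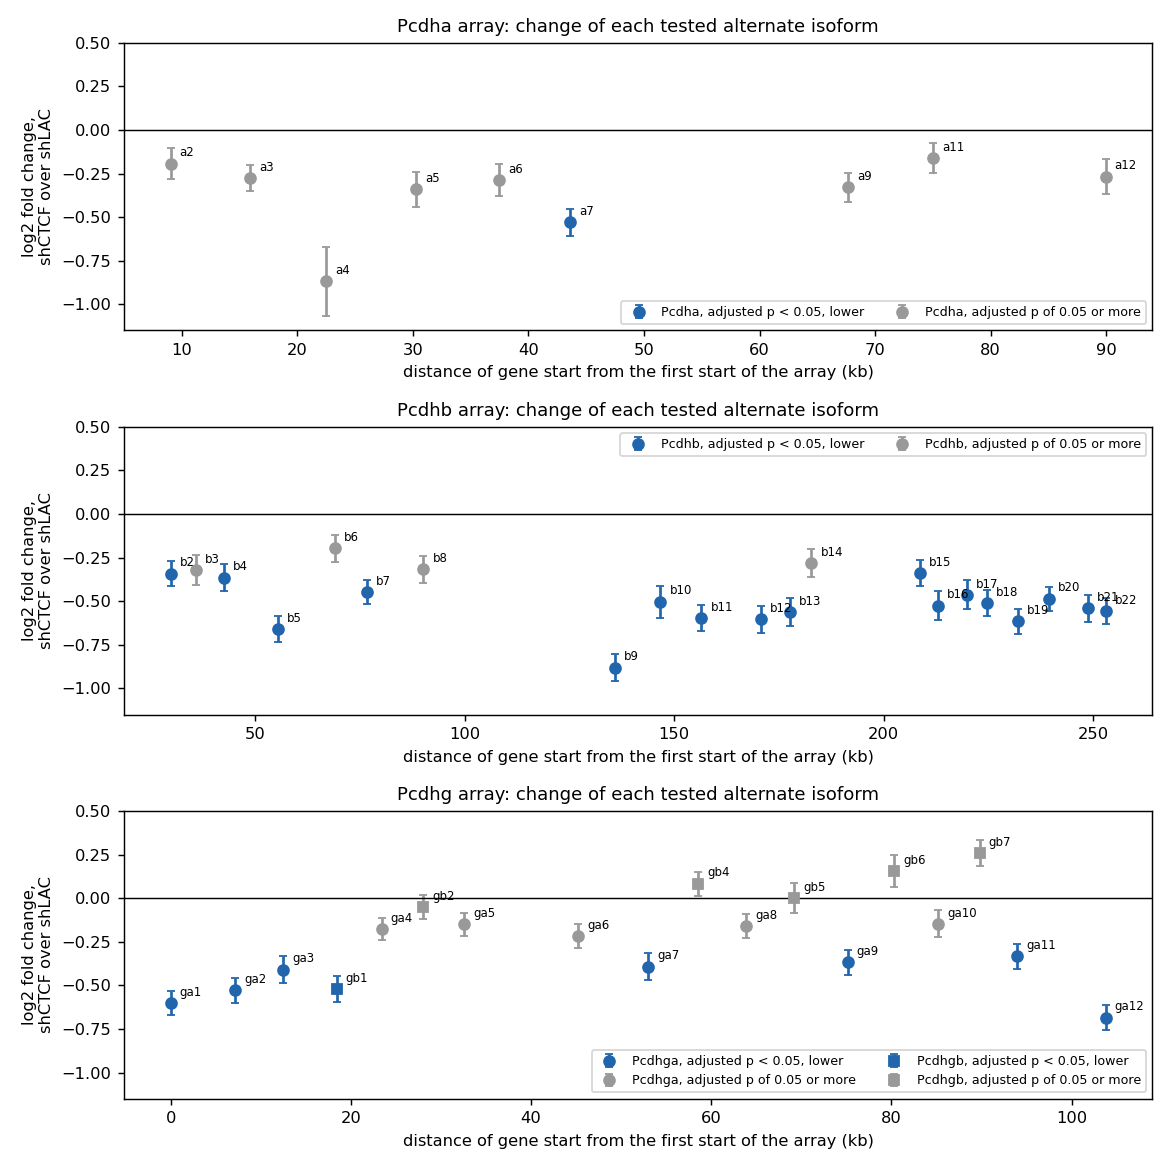
Log2 fold change, shCTCF over shLAC, on log2(scaled TPM + 1) (y axis) of the 48 tested alternate isoforms against the distance of the gene start from the first start of the array in kb (x axis); bars are limma standard errors (n = 2 per group), blue marks an adjusted p below 0.05 and squares mark Pcdhgb. Pcdhb9 at -0.88 and Pcdha4 at -0.87 lie lowest, and Pcdhgb7 at 0.26 lies highest.

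In the Pcdha array every member had a lower scaled level in both shCTCF libraries than in either shLAC library, but 1 of 9 tested members fell by limma. The median log2 fold change of the 9 was -0.29. Shares of control ran from 35.0% at Pcdha4 to 80.7% at the upstream Pcdha11 (ENSMUSG00000007440), and the 10 members other than Pcdha4 and Pcdha7 lay at 66.1% or above. As deposited, the groups did not overlap for 9 of the 12.

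Pcdha7 (ENSMUSG00000104318, gene start 36973802) was the Pcdha member that fell. It was at 2.53 and 2.10 TPM in shLAC and at 1.65 and 1.37 TPM in shCTCF, 56.9% of control (log2 fold change -0.53, SE 0.0769, limma adjusted p = 0.0138). The groups did not overlap, and leaving out shCTCF replicate 2 ended the call (limma adjusted p = 0.0642). Pcdha6, the most abundant Pcdha member by its mean over the libraries, was at 2.47 and 2.28 TPM against 2.26 and 1.84 TPM and was not called (limma adjusted p = 0.115).

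Pcdha4 had the lowest fold change of the array and just missed the threshold. It was at 1.81 and 2.76 TPM in shLAC and at 1.08 and 0.82 TPM in shCTCF, 35.0% of control (log2 fold change -0.87, SE 0.197, limma adjusted p = 0.0504). Both shCTCF values were low, while the control libraries were far apart, with shLAC replicate 2 high. Of the 101-base windows of its longest transcript, 45.7% occur in no other member, but only 1.82% occur in no other annotated gene. The predicted gene Gm42416 shares 2410 of its exonic bases on the same strand, and the antisense gene Gm38225 shares 393. Gm42416 went the other way in the control libraries, at 1.65 and 0.22 TPM in shLAC and at 1.05 and 1.18 TPM in shCTCF. So did Gm38225, at 2.09 and 0.05 TPM in shLAC and at 1.05 and 0.64 TPM in shCTCF, and it was not part of the sum below. Summed per library, the pair of Pcdha4 and Gm42416 was at 3.46 and 2.98 TPM in shLAC and at 2.13 and 2.00 TPM in shCTCF. On the sum, a choice made after the values were seen, limma gave a log2 fold change of -0.60 with SE 0.0706 and adjusted p = 0.00683. The spread of the control libraries was thus smaller for the pair than for Pcdha4 alone.

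The first and last Pcdha genes were similar in their share of control. Pcdha1, below the expression filter, was at 1.02 and 0.88 TPM in shLAC and at 0.78 and 0.83 TPM in shCTCF, 74.0% of control. Pcdha12 was at 1.70 and 1.80 TPM against 1.56 and 1.43 TPM, 73.6% of control (limma adjusted p = 0.172). Pcdha8, the lowest of all members in shCTCF replicate 1, was at 0.70 and 0.60 TPM against 0.41 and 0.58 TPM and was not tested. The upstream Pcdha11 was at 1.45 and 0.96 TPM in shLAC and at 1.19 and 1.01 TPM in shCTCF (limma adjusted p = 0.30), with overlapping deposited values. The downstream Pcdha11 (ENSMUSG00000102206), also below the filter, was at 1.04 and 0.95 TPM against 0.95 and 0.71 TPM. RefSeq's table for this assembly gives the name Pcdha10 to the upstream Pcdha11.

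Summed levels gave the arrays' standing, although a sum can still lean on single genes. In Pcdha, Pcdha4, whose reads may be shared with Gm42416, went from a scaled mean of 2.52 in shLAC to 0.884 in shCTCF. The Pcdha members summed to 20.9 ± 2.41 scaled TPM in shLAC and 14.0 ± 1.18 in shCTCF (mean ± SD, n = 2), 66.8% of control. For Pcdhb the sums were 47.6 ± 1.80 and 27.8 ± 1.34. Pcdhga members summed to 42.3 ± 0.763 and 30.7 ± 0.860, or 72.7% of control. In these 3 groups both knockdown sums lay below both control sums by more than the spread within a group. Pcdhgb members summed to 13.2 ± 0.813 in shLAC and 13.2 ± 0.261 in shCTCF, 100.2% of control, with overlapping libraries. The sum of all 52 was 124 ± 4.16 in shLAC and 85.7 ± 3.64 in shCTCF, or 69.1% of control. On the deposited scale the corresponding shares were 77.0% for Pcdha, 66.9% for Pcdhb, 83.1% for Pcdhga and 113.9% for Pcdhgb, so the direction of the Pcdhgb sum depends on the scale.

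Ratios between groups within a library do not depend on the scaling. Pcdhb over Pcdhg was 0.835 and 0.882 in shLAC and 0.642 and 0.622 in shCTCF. Pcdhga over Pcdhgb was 3.03 and 3.39 in shLAC and 2.33 and 2.31 in shCTCF. Pcdhb over Pcdha was 2.41 and 2.16 against 1.94 and 2.04. In each of these ratios both knockdown libraries lay below both control libraries, a direction that cannot reach a p under 0.333 with 2 libraries a group. As shares of all 52 members, Pcdhb made up 38.3% and 38.5% in shLAC and 32.6% and 32.3% in shCTCF, while Pcdhgb made up 11.4% and 9.95% in shLAC and 15.2% and 15.7% in shCTCF. The Pcdha share stayed between 15.8% and 17.8% with overlapping groups. The Pcdhga share was 34.5% and 33.7% in shLAC and 35.5% and 36.2% in shCTCF.

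**Figure D3:**
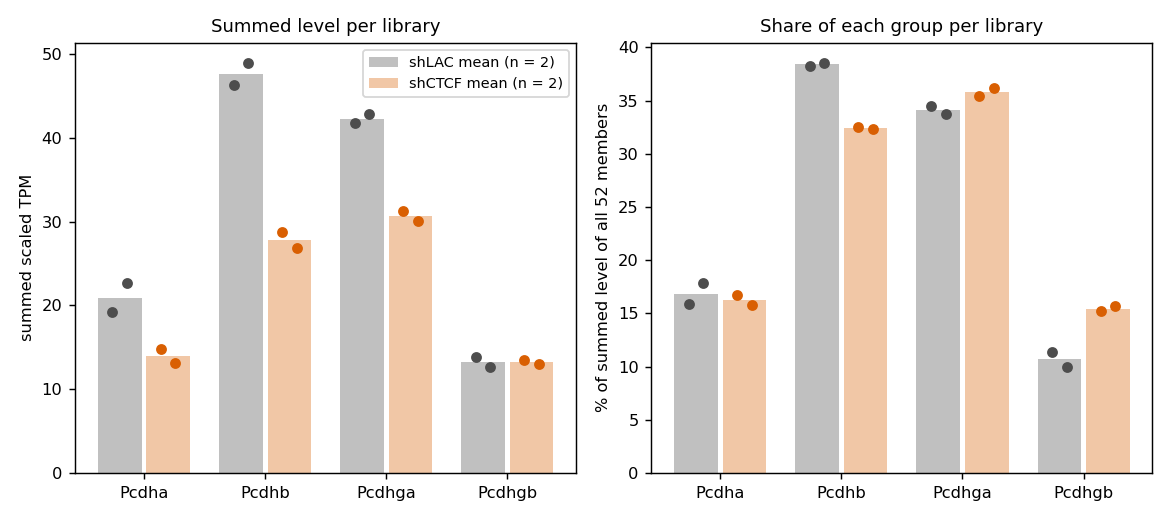
Left, summed scaled TPM (y axis) of the Pcdha, Pcdhb, Pcdhga and Pcdhgb alternate isoforms (x axis); right, the share of each group in the summed level of all 52 members in percent. Bars are means of 2 libraries and points are single libraries, grey for shLAC and orange for shCTCF; the Pcdhb sum is at 58.4% of control and the Pcdhgb sum, whose libraries overlap, at 100.2%.

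The spread of use over isoforms was nearly the same in both groups. The effective number of isoforms, the exponential of the Shannon entropy of the members' shares, was 46.5 in both shLAC libraries and 45.3 and 45.7 in shCTCF, of 52 possible. Within Pcdhb it was 19.9 in both shLAC libraries and 20.2 and 20.4 in shCTCF, of 22. Within Pcdhg it ran from 16.5 to 16.9 of 18, with overlapping groups. Pcdhga3 led in every library, with 5.23% to 5.64% of the sum of all members. No isoform took over the pool in these bulk samples, which says nothing of how many isoforms a single cell used.

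The order of the isoforms within an array was compared between libraries. In Pcdhg the ranks of the 18 levels correlated at a Spearman rho of 0.996 between the shLAC libraries and 0.973 between the shCTCF libraries, but at 0.718 to 0.729 between libraries of different groups. In Pcdhb the 22 ranks correlated at 0.960 and 0.978 within groups and at 0.897 to 0.930 between them. In Pcdha the values were 0.897 and 0.937 within groups and 0.623 to 0.888 between them for 12 members. The Pcdhg order thus differed between groups by more than between replicates, and in the order of group means 7 members changed by 4 or more places. Pcdhga1, Pcdhga2, Pcdhga12 and Pcdhgb1 moved down and Pcdhgb5, Pcdhgb6 and Pcdhgb7 moved up, while 6 members kept their place. Members of an array share libraries and, in Pcdha and Pcdhg, constant exons, so these are descriptions.

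Position in the array was described by the Spearman correlation of gene order with the log2 ratio of scaled means, without a pseudocount. In Pcdhb it was -0.35 over 22 members, so downstream genes were on balance further below control, and Pcdhb1, above control, is the gene farthest upstream. Without the untested Pcdhb1 it was -0.25. In Pcdhg it was 0.29 over 18 members and in Pcdha -0.13 over 12. Among the 4 pairings of a knockdown with a control library, the Pcdha value changed sign, from -0.09 to 0.13. Within Pcdhg, the 12 Pcdhga members gave 0.03 and the 6 Pcdhgb members 0.94, with 0.77 to 0.94 over the pairings of libraries. From the first to the last Pcdhgb member the share of control was 56.7%, 94.8%, 108%, 100.3%, 115% and 133%. The a-type genes lying between them did not follow this order. Pcdhgb8, left out by its annotation type, is not in this series, and the 0.94 was not computed with it. It was at 0.91 and 0.70 TPM in shLAC and at 0.75 and 0.77 TPM in shCTCF, with overlapping deposited values. Divided by the size factors, both its shCTCF values lay below both shLAC values, unlike the b-type members from Pcdhgb4 on. The 0.94 therefore describes the 6 members and not every annotated b-type gene.

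Summed levels over blocks of neighbouring genes did not run evenly along the arrays. In Pcdhb the scaled sum was at 65.6% of control over Pcdhb1 to Pcdhb8, at 52.9% over Pcdhb9 to Pcdhb15 and at 58.2% over Pcdhb16 to Pcdhb22. The counts that fell by limma were 4 of 8, with the untested Pcdhb1 among the 8, 6 of 7 and 7 of 7. The scaled level in shLAC also rose along Pcdhb, with a Spearman rho of 0.43 between position and level. The part of level in these counts was not tested. In Pcdhg the block from Pcdhga1 to Pcdhgb2 was at 70.2%, that from Pcdhga5 to Pcdhgb5 at 86.7% and that from Pcdhga9 to Pcdhga12 at 82.7%, with 4, 1 and 3 members that fell among 6 each. The Pcdha blocks of 4 genes were at 60.9%, 67.5% and 73.0%, the first of them holding Pcdha4, an order opposite in sign to the rank correlation of that array. In Pcdhb the middle block was lowest. No test compared the blocks.

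How well reads can be assigned differs between the arrays. Of the windows of 101 bases, the read length, a median of 99.8% per Pcdhb gene occurred in no other annotated gene, against 43.5% in Pcdha and 52.5% in Pcdhg, where the constant exons are common to all members. For Pcdha and Pcdhg a gene's TPM therefore rests on its first exon plus a division of shared reads by RSEM. Apart from Pcdhb12, at 37.7%, every Pcdhb gene had at least 92.3% of its windows to itself, and 16 of the 17 Pcdhb genes that fell were in that set. The lowest values in the nested arrays were 1.82% at Pcdha4, 2.16% at Pcdhga10 and 2.87% at the downstream Pcdha11. In these arrays antisense genes cover 55.2% of the exonic bases of Pcdhga10, 44.3% of the downstream Pcdha11, 29.0% of Pcdhga11 and 16.4% of Pcdhgb7. Values of these genes are uncertain if strand was not used. Other members of Pcdha and Pcdhg have at most 10.3% covered, at Pcdhga7.

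**Figure D4:**
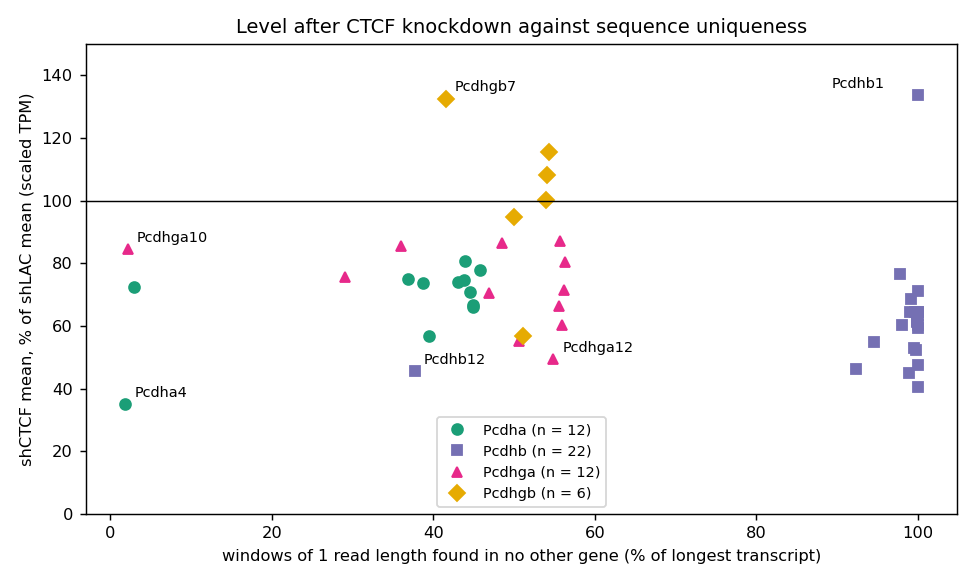
Mean scaled level in shCTCF as percent of the shLAC mean (y axis) against the percent of 101-base windows of the longest transcript that occur in no other annotated gene (x axis), 1 point per alternate isoform. All Pcdhb genes but Pcdhb12 lie at 92.3% unique windows or more and all but Pcdhb1 lie below 100% of control. In percent of control, the Pcdhgb members other than Pcdhgb1 lie above all Pcdhga members, and Pcdhgb1 is at 56.7%.

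The C-type isoforms, which use the same constant exons in Pcdha and Pcdhg but are known to be expressed in most neurons, showed no common direction. Pcdhac2 rose (11.7 and 9.47 TPM against 16.8 and 15.3 TPM, log2 fold change 0.38, limma adjusted p = 0.0132), Pcdhgc4, Pcdhgc3 and Pcdhgc5 were not called (log2 fold changes 0.47, 0.03 and -0.29, limma adjusted p = 0.0564, 0.845 and 0.0751), and Pcdhac1 was below the filter. Within a library, the alternate isoforms summed to 2.28 and 2.35 times the C-type isoforms in shLAC and to 1.5 and 1.42 times in shCTCF. In the Pcdha array alone this ratio was 1.59 and 1.83 in shLAC and 0.916 and 0.858 in shCTCF. In the Pcdhg array it was 1.35 and 1.33 against 1.05 and 0.999. All 3 ratios were lower in both knockdown libraries than in both control libraries.

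Genes around the arrays were not called. Of 12 tested neighbours on the same stretch of chromosome 18, such as Taf7, which lies between Pcdhb and Pcdhg and codes for a general transcription factor subunit, Ndufa2, a respiratory complex subunit, and Hars, a histidine tRNA ligase, 0 were called lower or higher by limma. None of the 12 had an unadjusted p below 0.05, and their median log2 fold change was 0.00. Taf7 was at 3.65 and 2.59 TPM in shLAC and at 3.78 and 3.45 TPM in shCTCF (log2 fold change 0.02).

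Among 11 tested genes of chromatin looping, Ctcf fell and Stag1, a cohesin subunit, rose (5.10 and 4.09 TPM against 9.05 and 8.23 TPM, log2 fold change 0.62, limma adjusted p = 0.00422). The other 9, including the core cohesin genes Rad21, Smc1a and Smc3 and the loader Nipbl, were not called. Of 9 tested regulators known to act on clustered protocadherins, such as the DNA methyltransferase Dnmt3a, the histone methyltransferase Setdb1 and the silencer Smchd1, 0 were called by limma in either direction. At an unadjusted p below 0.05, Dnmt3a and Wiz were higher. Hdac2 and Dnmt3a, the most abundant of the list, had log2 fold changes of -0.08 and 0.20 (limma adjusted p = 0.415 and 0.0664). Of 17 tested partners and downstream genes of protocadherin proteins, Nlgn1, a postsynaptic adhesion protein, fell and the other 16 were not called. Nlgn1 was at 28.7 and 22.3 TPM against 23.8 and 22.3 TPM (log2 fold change -0.32, limma adjusted p = 0.0146). Its groups overlapped as deposited and not after scaling.

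Markers of the cells in the culture were read the same way. The 6 pan-neuronal genes summed to 1150 and 1197 scaled TPM in shLAC and 1193 and 1185 in shCTCF, so the groups overlapped. Rbfox3 rose and 0 fell by limma. The 6 excitatory markers summed to 189 and 198 in shLAC and 233 and 223 in shCTCF, with 0 called by limma and 4 higher at an unadjusted p below 0.05. Of the 6 inhibitory markers Calb2 fell and Slc32a1 rose. For Calb2 the groups overlapped as deposited and not after scaling. The 6 astrocyte markers summed to 109 and 95.5 in shLAC and to 87.0 and 72.0 in shCTCF, and Aqp4 and Slc1a3 fell (log2 fold changes -1.07 and -0.52, limma adjusted p = 0.0119 and 0.0169). The part of this lower astrocyte signal in the levels of the alternate isoforms was not tested. Of the 5 tested oligodendrocyte lineage markers, 0 were called by limma, and 0 had an unadjusted p below 0.05. All 6 microglial markers were below 1 TPM in every library, and of the fibroblast and endothelial markers Dcn fell, Cldn5 was listed at 0 and the rest were below 1 TPM.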

How the data were processed

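Total RNA was sequenced as paired reads of 101 bases, per the labels' protocols. The authors deposited TPM per Ensembl gene, 1 file per library, with 2 decimals and 37437 genes. The submitters' processing notes name RSEM 1.2.28, CASAVA and mm10, and the sources used here do not give aligner, annotation release or strand. RSEM divides reads shared between genes, so members that share exons can trade level. Depth is lost in TPM. GENCODE vM21 on GRCm38, the assembly of mm10, named 36976 identifiers.

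The test took protein-coding genes of at least 300 nt, without predicted Gm-numbered genes, that reached 1 TPM in 2 or more libraries. They were scaled by median ratios and fitted as log2(scaled TPM + 1) with limma 3.58.1 in R 4.3.3. The prior followed the trend of variance with level, the only term was the group, and p-values were adjusted by Benjamini-Hochberg over 11132 genes, with 0.05 as threshold.

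Named were Ctcf, every member called, the first, last, most abundant, lowest and highest member of each group, members under the filter, up to 4 called genes per list (otherwise the 2 most abundant) and the C-type isoforms; other names were chosen after their values were seen. The members and gene lists were chosen with earlier results of these data known, as was this choice of fit. Alternatives were no scaling, upper-quartile scaling, pseudocounts of 0.1 and 0.5, other filters, all genes, a prior without trend, a replicate block and leaving out each library. Protein and promoter sequences were not used here.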

Additional observations from a re-analysis of the deposited data

How the results depend on the processing

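The direction of the members was stable and the number of calls was not. Of the members tested, 43 to 47 had a negative log2 fold change in each of the 15 fits. The count called lower, 26, became 7 without scaling, 11 without the expression filter, 5 when all genes were scaled and fitted together and 6 when all genes were fitted as deposited. Over all genes tested in those fits, 50, 160, 87 and 116 were lower and 106, 91, 47 and 246 higher, against 411 and 316. Leaving out 1 library gave 10 to 32 lower members, the lowest without shCTCF replicate 2; there the remaining shCTCF library was taken to vary like the other group. Upper-quartile scaling, other pseudocounts, a filter on the mean and a prior without trend gave 25 to 27. Pcdhb5, Pcdhb9 and Pcdhga12 were called lower in all 15 fits. Ctcf was called lower in each.

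With the replicate block, 30 members were lower, including all 26, against 6.92% of all genes tested in that fit. Pcdha4 was among the 30 (limma adjusted p = 0.0180). Deviations of same-numbered libraries correlated at 0.251. The labels state no shared batch, so whether same-numbered libraries were paired is not known.

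As deposited, the summed levels were 77.0% (Pcdha), 66.9% (Pcdhb), 83.1% (Pcdhga) and 113.9% (Pcdhgb) of control. The position correlation with 1 library left out ran from -0.22 to 0.27 in Pcdha, -0.42 to -0.26 in Pcdhb and 0.26 to 0.37 in Pcdhg. With a pseudocount of 1, added after seeing the data, it was 0.042 in Pcdha and 0.383 in Pcdhg, and over tested members alone -0.0167 in Pcdha and -0.248 in Pcdhb. Unknown depth limits every value near 1 TPM.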
